A study of Mus musculus with 12 samples.

Results

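The effect of the M176 form of the transcription factor Foxp3 was compared between regulatory T cells (Tregs) that carried it in the genome and conventional T cells that had received it from a retrovirus. The measure was a difference of differences on the log2 scale: the change from wild-type (WT) to M176 Foxp3 in Tregs minus the same change in transduced cells. It was computed for all 16426 genes that a probe set of the array named singly, which are all 16426 such genes of the series, and 8918 of them were bright enough to be tested. A value above 0 (called higher below) means that M176 moved the gene further up, or less far down, in Tregs than in transduced cells.

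Of the 12 microarrays of the series 8 were compared, 2 in each of 4 groups. They are of the Affymetrix Gene ST type, on which a set of short probes reads each transcript from amplified and labelled cDNA. The Tregs were live CD4+ CD25-high cells, sorted and sorted again, from spleens labelled Foxp3(M176/M176) or Foxp3(WT/WT). The transduced cells were conventional CD4+ T cells of WT mice that had been given M176 or WT Foxp3 by retrovirus in culture and were sorted for high Thy1.1, so these cells kept their own WT Foxp3 gene and were also cultured. All samples are labelled as spleen of male C57Bl/6 mice aged 6 weeks. The remaining groups, Tregs and transduced cells with a Foxp3 form called M354, entered the fit only to help estimate the spread between arrays. The groups include no cells given an empty virus, and the sources used here do not give the amino acid changes behind the name M176. Nothing in the labels ties the paired arrays of a group to separate mice or cultures, so the p-values measure only the spread between these samples, and that spread may be technical.

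Foxp3 is the defining transcription factor of Tregs, CD4+ T cells that restrain immune responses. Forced expression of Foxp3 in conventional T cells turns on part of the Treg programme and turns off part of the effector programme. Tregs in the spleen include resting cells and activated, effector Tregs, and the latter divide more and carry chemokine receptors, Klrg1 and granzymes. Activated T cells in culture also run high glycolysis and can switch on genes of the hypoxia response, which the transcription factor HIF-1 controls.

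Foxp3 had intensities of 5913 and 5327 on the WT Treg arrays and of 3442 and 3321 on the M176 Treg arrays. It had 5945 and 6163 on the arrays of WT-transduced cells and 5663 and 5233 on those of M176-transduced cells. Both M176 Treg arrays lay below all others, and the transduced groups did not overlap by a small margin. Foxp3 fell by 0.73 in Tregs (standard error, SE, 0.125; limma adjusted p = 0.000552). In transduced cells the difference was -0.15 (adjusted p = 1). The difference between systems, -0.58 (SE 0.18), did not pass (adjusted p = 0.0662), although it did with quantile normalization (-0.88, adjusted p = 0.0177), cyclic loess (-0.70, 0.029) and an offset of 32 on the intensities (-0.57, 0.0435). In transduced cells the probe set may read the retroviral transcript together with the cell's own, and these cannot be told apart here.

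The labelled cell type was checked against markers. On the 8 arrays the T cell genes Cd3e (5267 to 7459) and Cd4 (2998 to 5201) were bright in all groups, and Thy1 was higher in transduced cells (8176 to 9114) than in Tregs (4062 to 4353). The transduced cells had been sorted for high Thy1.1, so their Thy1 level is not a separate check of the cell type. Transduced cells also carried Cd8a at 344 to 449, against 70.0 to 111 in Tregs. The B cell gene Cd79a lay at 341 to 390 in transduced cells and at 399 on WT Treg array 2, against 93.8 to 105 on the other Treg arrays. The mean log2 level of the B cell list was 8.38 on WT Treg array 2 and 7.19 to 7.29 on the 3 other Treg arrays. The part of other cells in the results was not tested, and the counts of the lists without WT Treg array 2 are given below where they moved by 1.5 times or more. Among the 2 tested myeloid, 3 dendritic, 2 erythroid and 7 CD8+ T and NK cell markers, limma called 0 in the difference between systems, with 2, 0, 0 and 3 at an unadjusted p under 0.05. At that p, limma had 1870 of all 8918 tested genes in this difference.

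Limma called 490 of the 8918 genes in the difference between systems, or 5.49%, of which 359 (4.03%) were higher and 131 (1.47%) lower. A call here and below is a Benjamini-Hochberg adjusted p under 0.05 over the 8918 genes. With quantile normalization 322 were higher and 221 lower. The changes in Tregs and in transduced cells share no array. In Tregs alone 2206 genes (24.7%) changed, 1196 rising (13.4%) and 1010 falling (11.3%), while in transduced cells 46 changed (0.516%), 45 of them falling (0.505%) and 1 rising (0.0112%).

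Most of the called differences lay on the Treg side. Of the 359 higher genes, 322 (89.7%) had a change that passed in Tregs only, 23 (6.41%) in transduced cells only, 5 in both and 9 in neither. Of the 131 lower genes, 130 had a change that passed in Tregs only and 1, Ctsg, in transduced cells only. Not passing is not an absence of change: the lower gene Ccr4 differed by -0.42 in transduced cells (unadjusted p = 0.00561 by limma). By size, the change was larger in Tregs for 452 called genes and larger in transduced cells for 38. For all 490 called genes the 4 differences between single M176 and WT Treg arrays lay wholly above or wholly below the 4 between single transduced arrays, as they did for 3137 of all tested genes (35.2%).

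A change that passed in Tregs was called in the difference between systems for a minority of genes. Of the 2206 genes that changed in Tregs, 457 (20.7%) were called in the difference and 1749 (79.3%) were not. Of the 46 that changed in transduced cells, 29 (63%) were called. Across genes, which are not independent replicates, the changes in Tregs and transduced cells had a Pearson correlation of 0.321 (Spearman 0.309). The 1196 genes that rose in Tregs had a median change of 0.09 in transduced cells, where 71.6% of them lay above 0, and the 1010 that fell had a median of -0.09, with 26.7% above 0. Over all tested genes 47.1% lay above 0 in transduced cells. The spread of the changes over all genes was wider in Tregs (standard deviation, SD, 0.424) than in transduced cells (0.183).

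**Figure D1:**
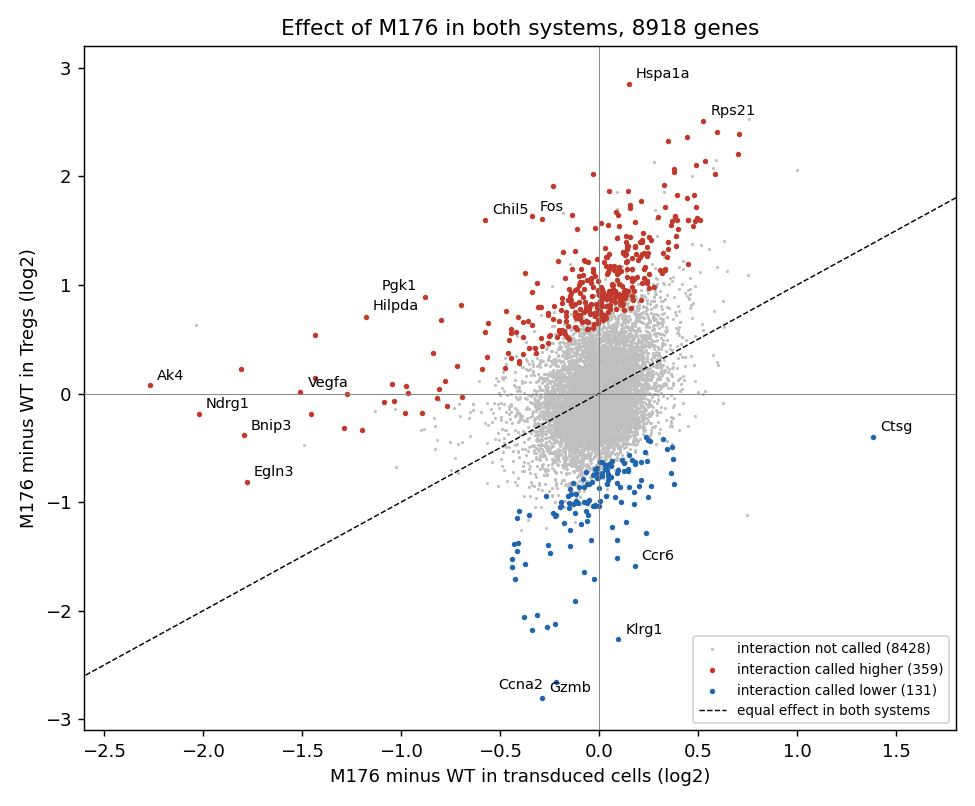
Change from WT to M176 Foxp3 (log2) in Tregs (vertical axis) against that in transduced cells (horizontal axis) for 8918 genes, each point 1 gene. Red and blue points are the 359 genes called higher and the 131 called lower in the difference between systems, and the dashed line marks equal change in both. Most called genes spread along the vertical axis, and a smaller set led by Ak4 and Ndrg1 stretches to the left.

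On the Treg side, cell cycle genes and genes of effector Tregs fell with M176, and Hspa1a, Fos and many genes of ribosomes, mitochondria and small nucleolar RNAs rose. On the transduced side, genes of the hypoxia response and of glycolysis fell with M176. The groups are described in that order, with the count of called members beside the 4.03% higher and 1.47% lower over all tested genes. At an unadjusted p under 0.05, limma had 1870 of the 8918 genes in the difference between systems and 527 in transduced cells. List counts at that p are to be read beside these. In bulk samples of this kind, fewer cells of a type and less RNA per cell cannot be told apart.

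**Figure D2:**
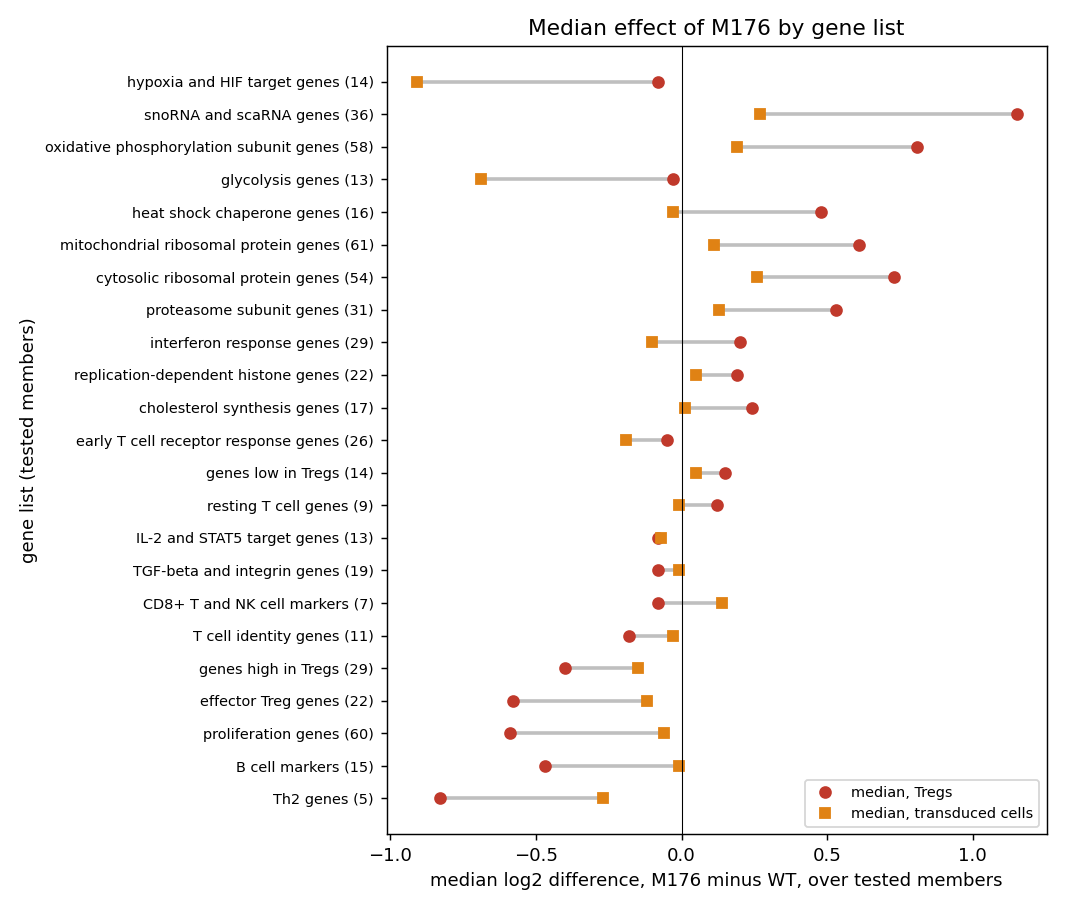
Median change from WT to M176 Foxp3 (log2) over the tested members of each gene list, in Tregs (red circles) and in transduced cells (orange squares), with the number of tested members after each list's name. The grey bar joins the medians. Hypoxia and glycolysis genes stand to the left in transduced cells and near 0 in Tregs, while snoRNA, oxidative phosphorylation and ribosomal protein genes stand to the right in Tregs.

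Cell cycle genes were lower in the difference between systems. Of 60 tested proliferation genes 15 were called lower and 0 higher, with a median of -0.52 against -0.02 over all tested genes. In Tregs 35 of the 60 fell and 0 rose (median -0.59), and in transduced cells limma called 0 in either direction (median -0.06), with 0 rising and 2 falling at an unadjusted p under 0.05. At that p, 31 of the 60 were lower and 0 higher in the difference between systems. The mean log2 level of the list was 7.40 and 7.67 in WT Tregs and 6.89 and 6.84 in M176 Tregs, below the 8.66 to 8.86 of the 4 transduced arrays.

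Ccna2 encodes cyclin A2, which drives DNA replication and entry into mitosis. It was at 417 and 606 in WT Tregs and at 82.6 and 76.9 in M176 Tregs, and at 2103 and 1811 with WT and 1504 and 1873 with M176 in transduced cells. M176 Tregs were low without overlap, while the transduced groups overlapped. Ccna2 fell by 2.66 in Tregs (SE 0.17, adjusted p = 5.71e-08) and differed by -0.22 in transduced cells (adjusted p = 1), a difference between systems of -2.44 (SE 0.24, adjusted p = 2.56e-05).

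The proliferation marker Mki67 showed 370 and 637 on the WT Treg arrays against 113 and 107 on the M176 Treg arrays, and 1697 and 1461 against 1407 and 1226 in transduced cells. Neither system's groups overlapped, and the gap was wide in Tregs only. The difference between systems was -1.89 (SE 0.295, adjusted p = 0.00159). Cyclin B2 (Ccnb2) stood at 959 and 1190.4 in WT Tregs and at 290.4 and 280.0 in M176 Tregs, against 2846 and 2484 with WT and 2288 and 2609.5 with M176 in transduced cells (difference between systems -1.78, adjusted p = 0.000123). E2f8, an atypical repressor of the E2F family, differed between systems by -1.84 (adjusted p = 0.000586) and the mitotic kinesin gene Kif11 by -1.72 (adjusted p = 0.00408). On the M176 Treg arrays E2f8 (57.9 and 42.0) and Kif11 (57.3 and 56.3) came near the level below which 90% of 1038 olfactory and vomeronasal receptor genes lay, 49.1, which leaves the size of these falls uncertain.

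The count of 15 proliferation genes rested in part on single arrays. It was 9 without M176 Treg array 1, 10 without WT Treg array 2 and at most 18 with another array left out, and 11 with an offset of 32 on the intensities. Of the 15, 8 were called with all arrays and in all 8 refits with 1 array left out. WT Treg array 2, which held the B cell transcripts, also had the higher level of the list of its group (7.67 against 7.40). With the mean snoRNA level of each array as a covariate the count was 8. The cell cycle homology region, searched as TTTGAA on both strands, stood in 18 of 52 promoter windows of the list (34.6%), against 16% of all windows of 250 bases and 10.6% of those of tested genes.

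Effector Treg genes were also lower. Of 22 tested, 7 were called lower and 2 higher, with a median of -0.42. In Tregs 12 fell and 2 rose (median -0.58), and in transduced cells 0 rose and 1 fell (median -0.12), or 0 and 4 at an unadjusted p under 0.05 by limma. The 2 higher members were Id2 and, named after its values were seen, Tnfrsf9. Neither was called without WT Treg array 2, M176 Treg array 1, WT-transduced array 2 or M176-transduced array 1, each of which left 0 higher.

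Gzmb encodes granzyme B, a cytotoxic protease. It was at 293 and 418 in WT Tregs and at 47.6 and 52.8 in M176 Tregs, but at 5549 and 5356 with WT and 3791 and 5269.5 with M176 in transduced cells. The gene was thus bright in cultured cells with either form, and in M176 Tregs it was near background. Gzmb fell by 2.80 in Tregs (SE 0.21, adjusted p = 3.63e-07) and differed by -0.29 in transduced cells (adjusted p = 1), a difference between systems of -2.52 (SE 0.29, adjusted p = 0.000123), whose size is uncertain because of the low end.

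Klrg1 encodes an inhibitory lectin-like receptor of terminally differentiated effector Tregs. On the WT Treg arrays it lay at 640.1 and 801, on the M176 Treg arrays at 172 and 129.6, and on the 4 transduced arrays between 101 and 118. M176 Tregs thus came down to near the level of the transduced cells. The difference between systems was -2.36 (SE 0.26, adjusted p = 8.17e-05).

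The effector list member Ccr2, a receptor that guides cells to inflamed tissue, was at 173 and 269.8 in WT Tregs and at 49.7 and 49.4, near background, in M176 Tregs, whereas transduced cells held 1466 and 1401 with WT and 994 and 1516 with M176 (difference between systems -1.90, SE 0.28, adjusted p = 0.00103).

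The short Th17 and Th2 lists, named for other helper T cell programmes, held lower genes too. Of 3 tested Th17 genes 2 were called lower, Ccr6 and the aryl hydrocarbon receptor gene Ahr (median -0.73), and of 5 tested Th2 genes 2, Ccr4 and the transcription factor gene Maf (median -0.56). In Tregs 3 members of each list fell, while limma called 0 in transduced cells, with 0 and 2 falling at an unadjusted p under 0.05. Maf and Ccr8 of the Th2 list also stand in the effector list. The call of Ahr (-0.73, adjusted p = 0.0471) was lost with any 1 array left out (0.0515 to 0.18). That of Maf (-0.68, adjusted p = 0.0323) was lost with any but M176-transduced array 2 left out (0.0515 to 0.142), so without WT Treg array 2 each list had 1 call.

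The chemokine receptor gene Ccr6 was at 418 and 526 in WT Tregs, 155 and 157 in M176 Tregs and 66.2 to 84.3 in transduced cells (difference between systems -1.77, SE 0.21, adjusted p = 0.000143). Ccr4, another, was bright everywhere, at 2095 and 2000.5 against 782 and 722 in Tregs and at 3232 and 3477 against 2303 and 2740.5 in transduced cells. It fell by 1.45 in Tregs and differed by -0.42 in transduced cells (adjusted p = 0.389), a difference between systems of -1.03 (adjusted p = 0.00411).

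S100a4, a calcium-binding protein of migrating cells, was at 291 and 321 in WT Tregs and 150.4 and 105 in M176 Tregs, and at 679 and 730.1 with WT and 789 and 873 with M176 in transduced cells. The groups of both systems were separate, in opposite directions, but only the fall in Tregs passed (-1.28, adjusted p = 0.000122, against 0.24 with adjusted p = 1). The difference between systems was -1.52 (SE 0.26, adjusted p = 0.00303). The microRNA gene Mir505 was also lower (-1.68, adjusted p = 0.0135), a call lost without M176 Treg array 1 (adjusted p = 0.0941) or M176-transduced array 1 (0.0907).

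Genes high in Tregs in general had a smaller median. Of 29 tested, 6 were called lower and 1 higher, with a median of -0.17, and 16 fell in Tregs against 1 in transduced cells. At an unadjusted p under 0.05, limma had 16 falling in Tregs and 10 in transduced cells, and 0 rising in either, with medians of -0.40 and -0.15. Of these 29, 5 also stand in the effector list, Klrg1 and S100a4 among them. The count of lower members fell to 2 without M176-transduced array 1 and to 4 without WT Treg array 2, which left 0 higher. Penk, the precursor of opioid peptides, was at 2018 and 1447 in WT Tregs and 1025 and 892 in M176 Tregs, and at 308 and 246 with WT and 397 and 322 with M176 in transduced cells. This gave a difference between systems of -1.21 (adjusted p = 0.0137), and it was not called without WT Treg array 1 (adjusted p = 0.0586), M176 Treg array 2 (0.0539) or M176-transduced array 1 (0.0907). Il2ra, the receptor chain used to sort the Tregs, fell by 0.48 in Tregs and differed by -0.27 in transduced cells, and the difference between systems, -0.21, did not pass (adjusted p = 0.54).

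**Figure D3:**
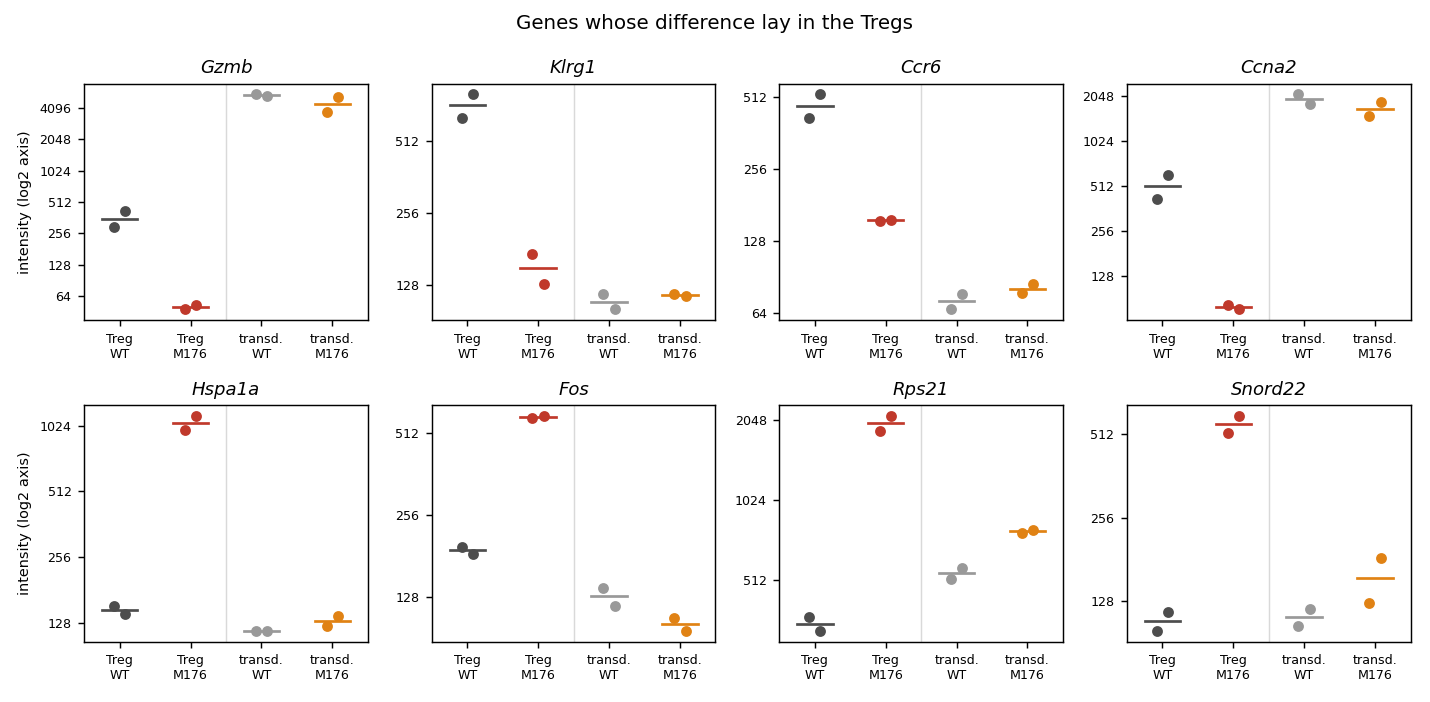
Intensity (log2 axis) of 8 genes whose difference lay in the Tregs, on each of the 2 arrays per group (points), with the group mean (line); Tregs stand left and transduced cells right of the grey line in each panel. Gzmb, Klrg1, Ccr6 and Ccna2 are low in M176 Tregs, and Hspa1a, Fos, Rps21 and Snord22 are high there.

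Hspa1a, an inducible chaperone of the Hsp70 family that is switched on by heat shock factor 1 under protein stress, had the highest difference between systems of the called genes. Its promoter is shown because it carries a match to the heat shock element searched for, GAANNTTC, in capitals. The window is the 250 bases before the gene start from RefSeq (GRCm38.p6, chr17:34972157-34972406, minus strand, read 5′ to 3′), and the match begins at position -104 from the start.

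Hspa1a: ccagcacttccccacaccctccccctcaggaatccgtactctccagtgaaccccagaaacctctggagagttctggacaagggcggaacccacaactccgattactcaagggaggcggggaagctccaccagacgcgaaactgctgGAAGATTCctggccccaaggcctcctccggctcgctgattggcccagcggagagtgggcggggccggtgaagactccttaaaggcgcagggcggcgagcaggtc

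WT Tregs held Hspa1a at 153 and 141 and M176 Tregs at 984 and 1135, against 117 and 118 with WT and 124 and 137 with M176 in transduced cells. Both M176 Treg arrays stood apart from the 6 others, which lay between 117 and 153. Hspa1a rose by 2.85 in Tregs (SE 0.13, adjusted p = 5.44e-10) and differed by 0.15 in transduced cells (adjusted p = 1), a difference between systems of 2.70 (SE 0.18, adjusted p = 3.41e-07). With any 1 array left out it stayed between 2.60 and 2.80. Hspa1a has a near-identical neighbour, Hspa1b, which the probe set may not separate from it.

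The rest of the heat shock list moved less. Of 16 tested chaperone genes 4 were called higher and 0 lower (median 0.56), or 9 and 0 at an unadjusted p under 0.05 by limma, and 11 rose in Tregs. Hspe1, the co-chaperone of the mitochondrial chaperonin, was at 982 and 952 in WT Tregs and 2924 and 3006 in M176 Tregs, and at 824 and 685 against 990.3 and 1132 in transduced cells. Its difference between systems was 1.12 (adjusted p = 0.0124), not called without M176 Treg array 1 (adjusted p = 0.052) or M176-transduced array 1 (0.0751). Without M176 Treg array 1 the list kept 1 call. Of the 18 promoter windows of its members 4 held GAANNTTC (22.2%), against 6.69% of all 32851 windows and 5.08% of the windows of tested genes, on either strand.

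Fos, a subunit of the immediate early transcription factor AP-1, was at 196 and 184 in WT Tregs and 584 and 593 in M176 Tregs, and at 138 and 119 with WT and 107 and 95.6 with M176 in transduced cells. Tregs were higher and transduced cells lower with M176, and the difference in transduced cells did not pass (-0.34, adjusted p = 0.674). The systems thus differed by 1.97 (SE 0.19, adjusted p = 2.44e-05). Cd69, an early activation marker, was at 1603 and 1813 against 2801 and 2813 in Tregs and at 2248 and 1829.9 against 1583 and 1821 in transduced cells (difference between systems 0.98, adjusted p = 0.00791). These were 2 of the 3 called genes among 26 tested early T cell receptor response genes, all higher, with a median of 0.25 over the list, and 2 were called without WT Treg array 2. Over the list the medians were -0.05 in Tregs, where 6 rose and 2 fell, and -0.19 in transduced cells, where limma called 0. At an unadjusted p under 0.05, 10 of the 26 fell and 0 rose in transduced cells, against 8 rising and 3 falling in Tregs.

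Interferon response genes gave 6 higher and 0 lower of 29 (median 0.41), or 13 and 0 at an unadjusted p under 0.05 by limma, with 10 rising and 2 falling in Tregs. Ifit3, an interferon-induced antiviral protein, was at 409 and 463 in WT Tregs and 795 and 683 in M176 Tregs, and at 134 and 138 with WT and 89.9 and 107 with M176 in transduced cells. The groups were separate in both systems and in opposite directions, and the difference in transduced cells did not pass (-0.47, adjusted p = 0.336). Between systems the difference was 1.23 (SE 0.20, adjusted p = 0.00224). Ifit1, of the same family, was higher by 1.51 (adjusted p = 0.00852), a call lost without M176 Treg array 1 (adjusted p = 0.0637), and without that array the list kept 1 call. The interferon response element, searched on both strands, stood in 9 of 28 promoter windows of the list (32.1%), against 2.98% of all windows and 2.54% of those of tested genes. This share covers members called or not, some of them with a difference below 0, and describes the list rather than the effect of M176.

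Dapl1, a gene low in Tregs and high in naive T cells, was at 554 and 639 in WT Tregs and 2259.8 and 2258 in M176 Tregs, and at 1299.9 and 1087 with WT and 1388 and 1603 with M176 in transduced cells. M176 Tregs were the highest of the 4 groups. Of 14 tested genes low in Tregs 3 were called higher (Dapl1, Pde3b and Id2) and 0 lower, or 4 and 1 at an unadjusted p under 0.05 by limma, with a median of 0.12. Without WT Treg array 2 the count was 2 and without M176 Treg array 1 it was 1. Dapl1 was also the 1 called gene among 9 tested genes of resting T cells (median 0.07). The values of Dapl1 gave a difference between systems of 1.60 (SE 0.215, adjusted p = 0.000447). Pde3b, a phosphodiesterase that Foxp3 represses, was at 60.2 and 56.3 in WT Tregs and 141 and 118 in M176 Tregs, but at 1452 and 1319 with WT and 1522 and 1580.4 with M176 in transduced cells (0.99, adjusted p = 0.00613; 0.0512 without M176 Treg array 1). Chil5, a chitinase-like gene, was at 84.4 and 84.3 in WT Tregs and 272 and 240.4 in M176 Tregs, and at 157 and 116 against 86.0 and 95.4 in transduced cells, where the difference of -0.58 did not pass (adjusted p = 0.201). Its difference between systems was 2.18 (SE 0.22, adjusted p = 2.62e-05).

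The lists of small nucleolar RNAs (snoRNAs), ribosomes, mitochondria and the proteasome held 64 of the 359 higher genes (17.8%). Of 36 tested snoRNA and scaRNA genes 9 were called higher (median 0.82), of 54 cytosolic ribosomal protein genes 14 (0.44), of 61 mitochondrial ribosomal protein genes 15 (0.48), of 58 oxidative phosphorylation subunit genes 21 (0.61) and of 31 proteasome subunit genes 5 (0.43). Limma called 0 members of these 5 lists lower. The share called was 25%, 25.9%, 24.6%, 36.2% and 16.1%, in that order, against 4.03% called higher over all tested genes. In Tregs 21, 37, 45, 47 and 19 members rose, in that order, and in transduced cells 0 of any list did, where the medians were 0.27, 0.26, 0.11, 0.19 and 0.13. At an unadjusted p under 0.05, limma had 4, 16, 4, 14 and 2 members rising in transduced cells, and 0 members of these lists lower in the difference between systems.

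Snord22, of the snoRNA list, was at 99.6 and 117 in WT Tregs and 519 and 595 in M176 Tregs, and at 104 and 119.5 with WT and 126 and 183 with M176 in transduced cells. The M176 arrays were above the WT arrays in both systems, and only the change in Tregs passed (2.36 against 0.45, adjusted p = 5.52e-07 and 0.762). The systems thus differed by 1.92 (SE 0.26, adjusted p = 0.000521). Rps21, of the small ribosomal subunit, was at 371 and 328 against 1867 and 2123 in Tregs and at 515 and 568 against 772 and 786 in transduced cells. The difference was 1.99 (SE 0.30, adjusted p = 0.0011), and the gene's other probe set gave 2.14. Rpl24, of the large subunit, was at 551 and 507 against 2615 and 2692 in Tregs and at 1639.9 and 1339 against 1883 and 1895 in transduced cells (1.98, SE 0.21, adjusted p = 4.19e-05; 1.96 by its other probe set). Ribosomal protein genes have many processed copies in the genome, so their probe sets may read more than 1 locus.

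Among mitochondrial genes Ndufb9, a subunit of complex I of the respiratory chain, was at 682 and 608 against 1917 and 1931 in Tregs and at 909 and 756 against 895 and 986 in transduced cells (1.40, SE 0.22, adjusted p = 0.0015). Mrps36, of the mitochondrial ribosomal list, was at 42.0 and 42.8 against 166 and 126 in Tregs and at 78.3 and 66.1 against 83.5 and 83.4 in transduced cells (1.55, adjusted p = 0.000555). Its WT Treg values lay below the background level of 49.1, which leaves the size of its rise uncertain. Psmb10, a subunit of the immunoproteasome, was at 1298 and 1046 against 2982 and 2948 in Tregs and at 1251 and 925 against 1278 and 1161 in transduced cells (1.17, adjusted p = 0.0045). The Treg groups were far apart in all 3 genes, while the transduced groups overlapped in Ndufb9 and Psmb10 and lay close together in Mrps36.

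The number of calls in these groups, and in others, depended on whether a property of the arrays, the mean snoRNA level, was in the fit. The mean log2 level of the snoRNA list reached 9.98 and 10.04 in M176 Tregs, against 8.74 and 8.87 in WT Tregs, 8.61 and 9.18 on the arrays of WT-transduced cells and 8.86 and 9.46 on those of M176-transduced cells. With that level as a covariate 170 genes were called in place of 490, 146 of them among the 490. The counts of higher members became 3 of the snoRNAs, with 4 others lower and a median of -0.05, 3 of the cytosolic ribosomal proteins, 8 of the mitochondrial ribosomal proteins, 4 of the oxidative phosphorylation genes and 2 of the proteasome genes. Outside these lists, the higher count became 1 in place of 4 for heat shock and 3 in place of 6 for interferon response genes. It became 4 in place of 6 for glycolysis and 7 in place of 8 for hypoxia. The lower count became 4 in place of 7 for effector Treg genes and 3 in place of 6 for genes high in Tregs. Hspe1, Cd69, Penk, Mir505 and Bnip3 lost their call with the covariate. The covariate is made from the snoRNA list, so the loss in that list follows from its construction. The level also separates the M176 Tregs from the WT Tregs, so the allele and this property cannot be told apart among Tregs. Without M176 Treg array 1 the mitochondrial ribosomal list kept 6 calls and oxidative phosphorylation 9 (11 and 13 without WT Treg array 2), and without M176-transduced array 1 the cytosolic ribosomal list kept 4, the snoRNAs 4 and the proteasome 1. Quantile normalization gave 8 for the cytosolic ribosomal list and 12 for oxidative phosphorylation, and all 5 medians stayed above 0 with it. Over all alternatives, the covariate included, the lowest median was 0.45 for the mitochondrial ribosomal list and 0.44 for oxidative phosphorylation. It was 0.26 for the cytosolic ribosomal list and 0.21 for the proteasome, both with the covariate.

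Replication-dependent histone genes were mixed, with 4 called higher and 1 lower of 22, against the fall of the proliferation genes. H2bc4 was at 298 and 237 in WT Tregs and 957 and 982 in M176 Tregs, and at 235 and 131 against 186 and 178 in transduced cells (1.82, SE 0.31, adjusted p = 0.00303). Histone genes of a cluster are near copies of each other, and the median of the list turned from 0.28 to -0.42 with the snoRNA covariate. Without M176 Treg array 1 or M176-transduced array 1 it kept 1 higher call.

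Genes of the hypoxia response were among those whose difference lay in transduced cells. Of 14 tested hypoxia and HIF target genes 8 were called higher and 0 lower, with a median of 1.01. The median change was -0.91 in transduced cells, where 9 fell, and -0.08 in Tregs, where 1 fell (Egln3) and 0 rose, or 1 and 1 at an unadjusted p under 0.05. Of 13 tested glycolysis genes 6 were called higher and 0 lower (median 0.61), with 7 falling in transduced cells (median -0.69) and 2 rising and 1 falling in Tregs (median -0.03). The lists share 1 gene, Slc2a1, and over their 26 genes 13 were called higher and 15 fell in transduced cells. At an unadjusted p under 0.05, limma had 12 hypoxia and 10 glycolysis genes higher and 0 of either list lower.

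The mean log2 level of the hypoxia list was 9.82 and 9.74 on the arrays of WT-transduced cells and 8.69 and 8.72 on those of M176-transduced cells. It was 8.64 and 8.76 on the M354-transduced arrays and 7.72 to 7.88 on the M176 and WT Treg arrays. The 2 arrays of WT-transduced cells were thus the highest, and the difference between systems in this list rests on that control pair. The labels hold no batch that would separate that pair from the other transduced arrays, and anything else that sets the pair apart cannot be told apart from the Foxp3 form. With any 1 array left out 7 to 9 hypoxia genes were called, while glycolysis kept 3 to 5, the lowest without WT Treg array 2, M176 Treg array 1, WT-transduced array 1 or M176-transduced array 1.

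The promoters of 3 of these genes are shown because each carries the core of the hypoxia response element, ACGTG on either strand, in capitals. They are the 250 bases before the gene start from RefSeq (GRCm38.p6): Bnip3 at chr7:138909507-138909756 on the minus strand, Pgk1 at chrX:106186850-106187099 and Slc2a1 at chr4:119108495-119108744 on the plus strand, all read 5′ to 3′ along the gene.
Bnip3: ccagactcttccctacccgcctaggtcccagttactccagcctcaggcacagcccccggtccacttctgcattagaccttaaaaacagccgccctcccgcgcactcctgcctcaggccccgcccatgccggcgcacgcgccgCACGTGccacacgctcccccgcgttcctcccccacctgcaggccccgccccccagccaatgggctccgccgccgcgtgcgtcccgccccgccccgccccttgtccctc
Pgk1: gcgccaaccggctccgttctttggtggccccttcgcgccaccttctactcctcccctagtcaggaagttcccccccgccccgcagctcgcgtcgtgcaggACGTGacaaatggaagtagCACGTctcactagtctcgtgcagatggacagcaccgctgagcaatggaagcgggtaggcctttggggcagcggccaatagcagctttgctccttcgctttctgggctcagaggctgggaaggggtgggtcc
Slc2a1: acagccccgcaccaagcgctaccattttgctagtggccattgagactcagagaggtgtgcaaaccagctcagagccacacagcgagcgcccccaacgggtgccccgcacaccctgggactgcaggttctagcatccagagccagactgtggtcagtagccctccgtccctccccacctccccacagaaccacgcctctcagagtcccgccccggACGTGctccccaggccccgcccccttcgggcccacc
In Bnip3 the core overlaps itself on both strands as CACGTG, and in Slc2a1 it begins at position -36 from the start. On either strand, ACGTG stood in 13 of 20 promoter windows of the hypoxia list (65%) and 11 of 20 of the glycolysis list (55%), against 16.6% of all 32851 windows and 21.8% of those of tested genes. This motif was chosen after the values had been seen, and a match is a description of the letters, not a site.

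Ndrg1, a stress-responsive gene that hypoxia induces, was at 408 and 356 in WT Tregs and 340.4 and 330.3 in M176 Tregs, and at 1772 and 1917 with WT and 475 and 434 with M176 in transduced cells. The transduced groups were far apart, and the M176 arrays came down to near the Treg level. Ndrg1 fell by 2.02 in transduced cells (SE 0.13, adjusted p = 7.37e-08) and differed by -0.18 in Tregs (adjusted p = 0.312), a difference between systems of 1.84 (SE 0.18, adjusted p = 2.56e-05).

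Ak4 encodes a mitochondrial adenylate kinase and is a HIF target. By its brighter probe set it was at 45.8 to 53.9, near background, on the 4 Treg arrays, at 658 and 676 with WT and at 133 and 143 with M176 in transduced cells. Between systems the difference was 2.35 (SE 0.18, adjusted p = 1.73e-06). Its other probe set read 169 and 130.4 with WT and 112 and 88.9 with M176 in transduced cells and gave a difference of 0.41. The probe sets thus disagree on the size.

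Bnip3, which drives the removal of mitochondria under low oxygen, was at 140.1 and 205 against 154 and 109.6 in Tregs and at 2067 and 1894 against 493 and 661 in transduced cells. The Treg groups overlapped and the transduced groups did not. This gave a difference between systems of 1.41 (SE 0.27, adjusted p = 0.00576), and 1.47 by its other probe set. Vegfa, the vascular growth factor, was at 122 and 88.1 against 106 and 103 in Tregs and at 536 and 514 against 197 and 173 in transduced cells (1.52, SE 0.24, adjusted p = 0.00183). Plod2, a collagen-modifying HIF target, lay at or below 35.3 on the 4 Treg arrays, which is background, and at 175.3 and 175.7 with WT against 62.3 and 67.5 with M176 in transduced cells (1.58, adjusted p = 0.000419).

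Slc2a1, the glucose transporter GLUT1, was at 1189 and 1189 against 1279 and 1218 in Tregs and at 4048 and 4375 against 2153 and 2132 in transduced cells. It fell by 0.97 in transduced cells and differed by 0.07 in Tregs (adjusted p = 0.705), a difference between systems of 1.04 (SE 0.17, adjusted p = 0.00243). Aldoa, the glycolytic aldolase, rose in Tregs from 2126 and 1865 to 3195 and 3039.8 (0.65, adjusted p = 0.00152), and was at 6148 and 6001 with WT and 4243 and 3991 with M176 in transduced cells (-0.56, adjusted p = 0.0672). Its difference between systems was 1.21 (SE 0.18, adjusted p = 0.00108).

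Ciart, a repressor of the circadian clock, was another gene whose difference lay in transduced cells. It was at 87.7 and 77.7 against 107 and 87.6 in Tregs and at 301 and 219 against 85.9 and 62.3 in transduced cells (2.04, SE 0.25, adjusted p = 0.000143). Ctsg, which encodes cathepsin G, a serine protease of myeloid granules, was the 1 gene whose rise in transduced cells passed. It was at 64.6 and 59.0 with WT and 155 and 168 with M176 there, and on the 4 Treg arrays between 32.7 and 49.8, which is background. Ctsg rose by 1.38 in transduced cells (SE 0.16, adjusted p = 0.000102), a difference between systems of -1.78 (SE 0.23, adjusted p = 0.000227). The myeloid markers Csf1r (47.1 to 54.4) and Cd14 (39.7 to 52.6) were near background on the 4 transduced arrays, and Itgam was at 83.9 and 83.7 with WT and 66.7 and 68.3 with M176. Tyrobp, another, was above background, at 103 and 121 with WT and 121 and 142 with M176 (0.15, adjusted p = 1).

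**Figure D4:**
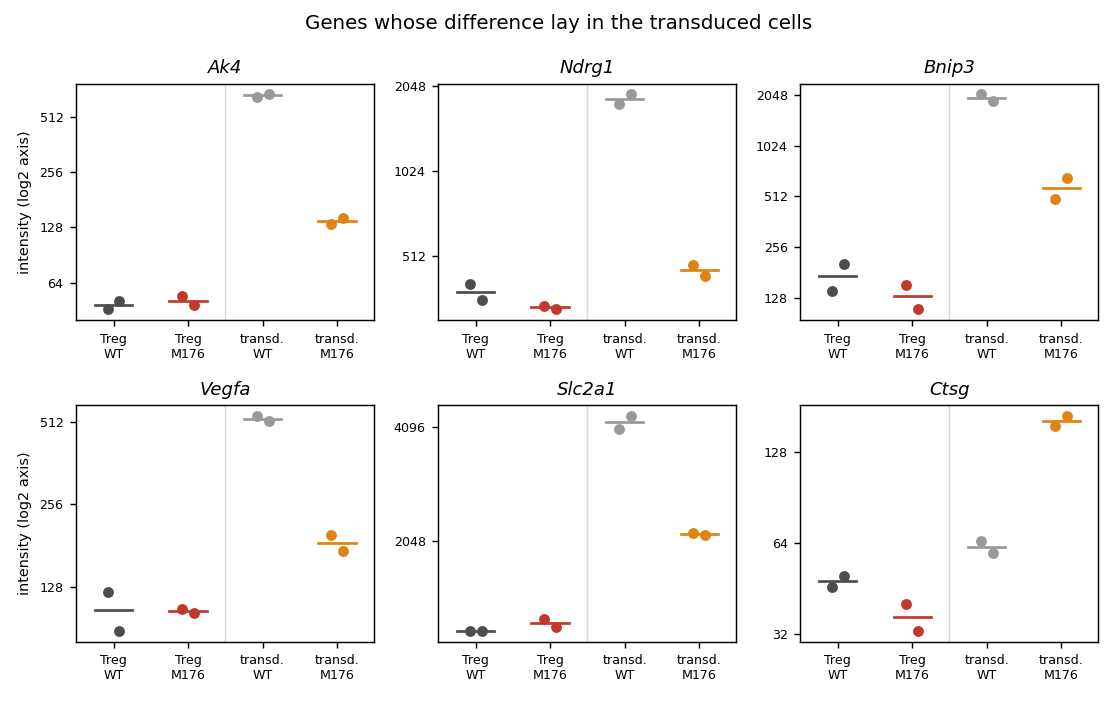
Intensity (log2 axis) of 6 genes whose difference lay in the transduced cells, on each of the 2 arrays per group (points), with the group mean (line). Ak4, Ndrg1, Bnip3, Vegfa and Slc2a1 are highest with WT Foxp3 in transduced cells, and Ctsg is highest with M176 there.

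In 4 genes the changes were opposite, with a rise in Tregs and a fall in transduced cells that both passed. Pgk1, the glycolytic phosphoglycerate kinase, was at 596 and 609 against 1258 and 991 in Tregs and at 3892 and 3511 against 1877 and 2152 in transduced cells. It rose by 0.89 in Tregs (adjusted p = 0.00135) and fell by 0.88 in transduced cells (adjusted p = 0.02), a difference of 1.77 (SE 0.24, adjusted p = 0.000521), and 1.67 by its other probe set. Hilpda, a lipid droplet protein that hypoxia induces, was at 96.6 and 80.0 against 147 and 139.7 in Tregs and at 282 and 321 against 118 and 149.9 in transduced cells (1.88, SE 0.225, adjusted p = 0.000143). Prelid2, a member of a family of lipid transfer proteins, was at 59.1 and 81.1 against 108 and 94.1 in Tregs and at 415 and 297 against 136 and 125 in transduced cells (1.97, SE 0.25, adjusted p = 0.000227). Sap30, a subunit of a histone deacetylase complex, was at 66.6 and 52.0 against 111 and 80.2 in Tregs and at 175.5 and 177.5 against 92.9 and 111 in transduced cells (1.47, SE 0.24, adjusted p = 0.00224).

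The opposite signs of these 4 genes, and the call of their difference between systems, held in all alternatives in which they were tested, but the calls of the single changes did not. The rise of Hilpda in Tregs did not pass without WT Treg array 2 (adjusted p = 0.0507). That of Prelid2 was lost without WT Treg array 1 (0.317) or either M176 Treg array (0.228 and 0.0584), and with the offset (0.0705). The fall of Pgk1 in transduced cells was lost without WT-transduced array 1 (0.188) or either M176-transduced array (0.309 and 0.0941). Sap30 lost the rise without WT Treg array 2 (0.0941) or M176 Treg array 1 (0.16), and the fall without any 1 transduced array (0.111 to 0.547), with quantile normalization (0.0855) and with the 8 arrays alone (0.0613). With the snoRNA covariate the rise in Tregs passed for 0 of the 4 (adjusted p = 0.149 to 0.532).

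In 7 genes a fall with M176 passed in both systems. They were Egln3, Tnfrsf8, Cysltr1, Clcn3, Nfil3, Slc2a3 and Errfi1. Not all of these falls held in the alternatives. Those of Clcn3 did not pass with the 8 arrays alone (limma adjusted p = 0.0549 in Tregs and 0.0551 in transduced cells). Those of Cysltr1, at 52.8 to 88.1 in Tregs, did not pass with quantile normalization (0.0865 and 0.0717). The fall of Errfi1 in Tregs did not pass without the filter (0.0518). Egln3, an oxygen-sensing prolyl hydroxylase, fell from 227 and 218 to 154 and 104 in Tregs and from 2564 and 2117 to 676 and 682 in transduced cells. The fall was larger in transduced cells (-1.78 against -0.81), a difference of 0.97 (adjusted p = 0.0284). That call was lost without either WT Treg array (adjusted p = 0.0545 and 0.0644), M176 Treg array 1 (0.187), WT-transduced array 1 (0.0876) or either M176-transduced array (0.102 and 0.0588).

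Slc2a3, the glucose transporter GLUT3, fell in both systems, from 1141 and 1195 to 732 and 730.0 in Tregs and from 2678 and 2636 to 1401 and 1219.9 in transduced cells. Its falls were 0.68 and 1.02, and the difference of 0.35 had a 95% interval of -0.03 to 0.72 and did not pass (adjusted p = 0.274). Tnfrsf8, the receptor CD30 of activated T cells, fell by 0.70 in Tregs and 0.75 in transduced cells, a difference of 0.05 (95% interval -0.32 to 0.42, adjusted p = 0.904). In the 4 others the difference lay between 0.24 and 0.39 and did not pass.

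The calls rested unevenly on the arrays. With 1 array left out, 153 to 542 genes were called, the fewest without M176 Treg array 1 and 187 without M176-transduced array 1. Of the 490 genes 128 were called in all 8 such fits, 97 higher and 31 lower. Among these, 18 had the larger change in transduced cells, 9 were hypoxia or glycolysis genes, 8 proliferation genes, 7 oxidative phosphorylation genes, 6 mitochondrial ribosomal, 4 cytosolic ribosomal and 4 snoRNA genes. Ccna2, Gzmb, Klrg1, Ccr2, Ccr4, Ccr6, S100a4, Hspa1a, Fos, Ifit3, Ndrg1, Ak4, Vegfa, Slc2a1 and Ctsg were among the genes that kept their call in all 8.

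**Figure D5:**
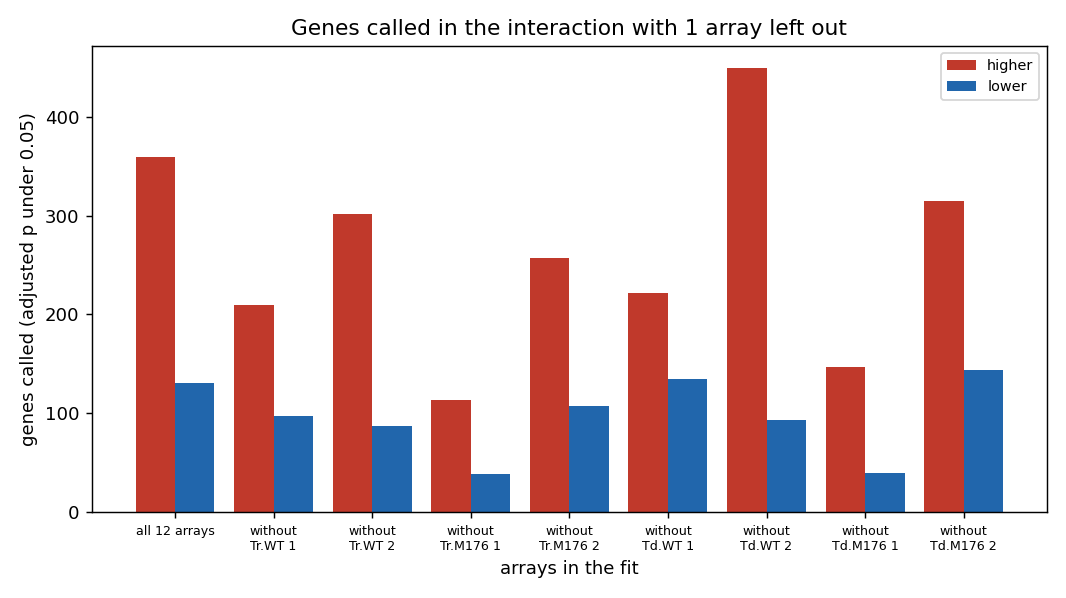
Genes called in the difference between systems (limma adjusted p under 0.05), higher (red) and lower (blue), with all 12 arrays and with each of the 8 compared arrays left out in turn. The bars are lowest without M176 Treg array 1 (114 and 39) and M176-transduced array 1 (147 and 40), and the higher set is largest without WT-transduced array 2 (449).

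The remaining lists gave few or no calls. Limma called 0 members of the IL-2 and STAT5 list (13 tested), the Th1 list (3), the follicular helper list (4) and the plasma cell list (3). At an unadjusted p under 0.05 there were 3, 1, 1 and 1, against 1870 of all 8918 tested genes. Of the B cell markers 1 of 15 was called lower, Spib (-1.095, adjusted p = 0.0309), a call lost without any 1 array except WT Treg array 1 and WT-transduced array 1 (adjusted p = 0.0688 to 0.113), and the median of the list, -0.55, turned to 0.14 without WT Treg array 2. Without WT Treg array 1, which leaves the array with the B cell transcripts as the only WT Treg array, 8 were called lower and the median was -0.98. Cholesterol synthesis gave 1 higher of 17, T cell identity 1 higher of 11, and the TGF-beta and integrin list 1 lower of 19. Each of these 3 calls was lost without at least M176 Treg array 1, and without WT Treg array 2 the counts were 2, 1 and 0.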

How the data were processed

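The 12 arrays were labelled as Tregs or transduced T cells with WT, M176 or M354 Foxp3, 2 per group, and groups were taken from the sample titles. Probe sets were summarised by RMA in Affymetrix Power Tools, per the submitters' processing notes; this step corrects background, aligns the arrays and combines the probes. The deposited values are intensities on a linear scale, with array medians of 101.5 to 117.4, while no source used here gives the versions or the genome build. The number of arrays limits the precision, and replicates correlated at 0.9842 to 0.9918.

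Of 20716 probe sets 17703 named 1 gene, 1246 several and 1767 none, and 17635 Entrez numbers matched the reference table. They gave 16426 genes, and the brightest of several probe sets (734 genes) was used. Genes above the median of their own array on at least 2 arrays were tested (8918). Chromosomes 1, 10 and 11 hold only 29, 15 and 226 of the named genes, and other genes there are not analysed here. Log2 intensities, computed here from those deposited, were modelled by limma 3.58.1 (R 4.3.3) as 6 group means, all 12 arrays and no block. Adjusted p-values are limma's, by Benjamini-Hochberg. On simulated data for 8918 genes in this comparison, the fit recovered 87% of genes changed by 1 on the log2 scale and 100% of those changed by 2. Of its 198 calls 11 were false. The simulated noise was independent between genes, without deviations shared across an array, so these rates may not hold for the real arrays.

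The comparison, the lists and the rule for named genes were chosen with earlier results of these data known. The rule took Foxp3, the 12 highest and 12 lowest called genes, up to 10 with the larger change in transduced cells, up to 10 called in both systems with the same or opposite signs, and up to 4 called members of each list. Predicted genes are counted but not named. Histone gene symbols were brought to current names after the files were read. Promoter windows are RefSeq's, and each motif share covers all members of a list, called or not, and was not tested. Alternatives were another normalization, filter, offset or probe set rule, the 8 arrays alone, a replicate block, the snoRNA level as a covariate, and leaving out each array.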

Additional observations from a re-analysis of the deposited data

Results flagged for a closer look

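The change with M176 differed between Tregs and transduced cells by a direct test of the difference for 359 genes that were higher and 131 that were lower. In 4 of them the change passed in both systems with opposite signs: Pgk1 (1.77, adjusted p = 0.000521), Prelid2 (1.97, adjusted p = 0.000227), Hilpda (1.88, adjusted p = 0.000143) and Sap30 (1.47, adjusted p = 0.00224), each rising in Tregs and falling in transduced cells. With some 1 array left out, the rise in Tregs did not pass for Hilpda, Prelid2 and Sap30, nor the fall in transduced cells for Pgk1 and Sap30.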

How the results depend on the processing

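Of 78 named genes called in the difference between systems, 46 kept the call with any 1 array left out and 38 under all alternatives run. Counts of called genes stayed within 1.5 times of the 490 with either normalization, the other filters, the offset, the 8 arrays alone and the mean of probe sets, but quantile normalization gave 221 lower genes in place of 131. With the snoRNA level as a covariate 170 were called, 134 higher and 36 lower, in Tregs 364 in place of 2206. That level nearly coincides with M176 among the Tregs. Among transduced cells 26 genes passed in place of 46 with the filter at percentile 75, where fewer genes were tested. With 1 array left out the count ranged from 153 to 542 (114 to 449 higher, 39 to 144 lower), in Tregs from 917 to 2385 and in transduced cells from 23 to 53. The difference for Tnfrsf8, not called, turned to -0.008 with quantile normalization and -0.009 with the covariate, and ranged from -0.05 to 0.149 with 1 array left out. The cause was not tested. The replicate numbers gave no consistent pairing of the samples: deviations of same-numbered arrays correlated at -0.43 to 0.25 among the 4 groups. With the M354 groups the lowest value was -0.551, between WT-transduced and M354-transduced cells. These values cannot tell whether arrays of different groups shared a batch under another numbering, which was not tested. With the replicate number as a block 386 genes were called, 292 higher and 94 lower, 382 of them among the 490. With 2 arrays per group the median SE was 0.203 for the difference and 0.143 for the change in Tregs, and genes near background have no reliable size.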
